A study of Mus musculus with 4 samples.

Results

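Creatine kinases and enzymes of adenine nucleotide metabolism were examined in calf muscle (gastrocnemius together with soleus) of mice lacking corticotropin-releasing factor receptor 2. The genes were chosen by name: the creatine kinases Ckm, Ckb, Ckmt1 and Ckmt2, the adenylate kinase Ak1, the AMP deaminases Ampd1 and Ampd3, the adenylosuccinate synthase Adssl1 and Gamt, an enzyme of creatine synthesis. Every probe set that the platform annotation gives to 1 of these symbols was taken, which yielded 13 probe sets of 8 genes among 12422 tested probe sets of 8251 genes. Ampd1 has no probe set under its symbol in that annotation and was not analysed here.

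The comparison was between Crhr2-/- mice (KO) and their Crhr2+/+ littermates (WT), all male, 6.5 months old, on a C57BL/6x129 background, fed chow and untreated. Each genotype had 4 mice, whose RNA was combined into 2 pools of 2 mice, and each pool was hybridised to 1 Affymetrix U74Av2 array. Sample titles gave the genotypes, since the labels list the tissue under genotype and the genotype under tissue. Every n below is therefore a number of pools, and the spread between single mice is not seen.

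Muscle contraction spends ATP faster than oxidation or glycolysis can at once replace it, and creatine kinases bridge the gap by passing phosphate between phosphocreatine and ADP. The cytosolic forms act near the myofibrils and ion pumps, while the mitochondrial forms sit between the mitochondrial membranes and charge creatine with newly made ATP. When ADP builds up, adenylate kinase recovers ATP from it and leaves AMP, which AMP deaminase turns into IMP. Adenylosuccinate synthase and adenylosuccinate lyase then rebuild AMP, and together these steps are the purine nucleotide cycle.

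The proximal promoters of the 4 creatine kinase genes are shown because the results below set muscle forms (Ckm, Ckmt2) beside forms made mainly in other tissues (Ckb, Ckmt1). Each window runs from 250 bases before to 50 bases after an annotated start, is written in the direction of the gene, and comes from RefSeq on GRCm38.p6. Ckmt1 has a second annotated start, whose window is not printed and held 0 E-boxes and 0 TATA boxes. Capitals mark the E-box, a site bound by myogenic factors, searched for as CANNTG on both strands. They also mark the TATA box, searched for on both strands as TATAAA only. Other forms of the box were not searched for and stay in lower case, such as tatataa in the Ckm window.
Ckm (chr7:19410844-19411143, plus strand): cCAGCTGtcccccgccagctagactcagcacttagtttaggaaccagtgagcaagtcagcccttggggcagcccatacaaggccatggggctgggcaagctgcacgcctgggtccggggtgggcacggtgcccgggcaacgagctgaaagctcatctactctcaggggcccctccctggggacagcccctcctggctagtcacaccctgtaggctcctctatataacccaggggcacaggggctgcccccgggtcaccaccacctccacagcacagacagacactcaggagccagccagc
Ckb (chr12:111672289-111672588, minus strand): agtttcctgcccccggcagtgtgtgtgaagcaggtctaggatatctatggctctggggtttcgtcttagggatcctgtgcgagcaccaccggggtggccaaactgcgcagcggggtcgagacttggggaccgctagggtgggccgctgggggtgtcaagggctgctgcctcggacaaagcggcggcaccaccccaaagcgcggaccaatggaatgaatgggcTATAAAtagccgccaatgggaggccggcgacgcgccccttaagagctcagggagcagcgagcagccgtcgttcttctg
Ckmt2 (chr13:91876836-91877135, minus strand): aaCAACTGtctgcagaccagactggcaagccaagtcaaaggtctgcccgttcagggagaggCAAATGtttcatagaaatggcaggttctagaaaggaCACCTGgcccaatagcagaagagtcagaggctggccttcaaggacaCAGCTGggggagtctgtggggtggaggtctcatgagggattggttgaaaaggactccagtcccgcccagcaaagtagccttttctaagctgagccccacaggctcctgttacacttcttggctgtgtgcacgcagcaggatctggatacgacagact
Ckmt1 (chr2:121357526-121357825, plus strand): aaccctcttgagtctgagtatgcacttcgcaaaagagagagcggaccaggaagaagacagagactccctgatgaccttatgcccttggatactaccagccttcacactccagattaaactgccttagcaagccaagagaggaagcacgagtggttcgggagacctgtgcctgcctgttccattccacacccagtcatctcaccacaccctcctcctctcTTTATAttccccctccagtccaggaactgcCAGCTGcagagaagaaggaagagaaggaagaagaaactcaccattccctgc

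The Ckmt2 window held 4 E-boxes, the Ckm window and the printed Ckmt1 window 1 each and the Ckb window 0, where 72.3% of all 32851 promoter windows of this length held at least 1. TATAAA was found once in the Ckb window and once, on the opposite strand, in the printed Ckmt1 window, against 13.6% of all windows, and no marked E-box overlapped a TATA box. The TATAAA match of Ckb lay inside a match to the MEF2 site, a motif of muscle and brain genes that 0.557% of all windows held. The receptor signals mainly through cyclic AMP, so the cyclic AMP response half-site TGACG was searched for in the same way. It stood in 1 of the 14 windows of the 8 genes, that of Adssl1, against 20.8% of all windows, and the full site TGACGTCA in 0 of 14, against 1.79%. Such matches describe letters and do not show binding.

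The values are linear signal intensities in arbitrary units, already on a common scale as deposited: after trimming 2% of probe sets at either end, each array averaged 200.2. Skeletal actin (Acta1) was strong in every pool, between 19099 and 21770. The 8 skeletal muscle markers, Acta1 among them, summed to 49118 and 57290 in KO and to 53488 and 54143 in WT. Their levels differed widely, and 1 of the 8, with a mean of 62.1, lay below the median probe set. The targeted gene read 100.4 and 75.1 in KO, against 154 and 192 in WT, on its brighter probe set, and 36.7 and 22.7 in KO, against 18.8 and 45.3 in WT, on the other. Control ratios of 3' to 5' signal were above WT in both KO arrays, at 0.729 and 0.866 in KO and 0.624 and 0.686 in WT for actin, and at 1.04 and 0.988 in KO and 0.889 and 0.914 in WT for Gapdh. Their part in the results was not tested. In RNA of whole muscle, fewer cells of a type and less RNA per cell cannot be told apart. The number of arrays limits the precision.

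The creatine kinases of the muscle fibre read nearly alike in KO and WT muscle on their strongest probe sets. Ckm, the cytosolic muscle creatine kinase (Entrez gene 12715), read 5946 and 5793 in KO, against 6133 and 5569 in WT, on probe set 161569_f_at. Both KO pools lay between the WT pools. The means were 5869 ± 108 in KO and 5851 ± 399 in WT (SD, n = 2 each), and the log2 fold change was 0.0061 ± 0.11 (standard error, limma adjusted p = 0.997). The 95% interval of the difference ran from 0.84-fold to 1.21-fold. That interval is not adjusted for the 12422 probe sets tested. The smallest adjusted p among them was 0.803 (limma), so with 2 pools per genotype the adjusted test called no difference of any size.

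The other Ckm probe set, 160175_at, was near the floor of the array. It read 13.1 and 17.6 in KO, against 7.37 and 10.1 in WT, and so had both KO pools above both WT pools. Its log2 fold change of 0.37 ± 0.25 (limma adjusted p = 0.908) did not pass and was 0.14 with a pseudocount of 56 and 0.63 with one of 3.5, in place of 14. Fold changes are given on the log2(intensity + 14) scale, which understates those of dim probe sets. The probe sets of Ckm therefore differ in whether the genotypes overlap, and the sources used here do not place either along the transcript. In Affymetrix naming the ending _f marks probes that match several related sequences and _r a set designed under relaxed rules, so signal of related transcripts can enter both kinds.

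Ckmt2, the mitochondrial creatine kinase of striated muscle (Entrez gene 76722), matched between genotypes on its brightest probe set. Probe set 103618_at read 6575 and 6366 in KO, against 6455 and 6288 in WT, and the pools of both genotypes interleaved. Means were 6471 ± 147 in KO and 6371 ± 118 in WT (SD, n = 2 each), with a log2 fold change of 0.022 ± 0.10 (limma adjusted p = 0.988) and an interval from 0.85-fold to 1.21-fold. A second set, 162015_f_at, read 639 and 481 in KO, against 563 and 594 in WT, so that the KO pools lay outside the WT pools on both sides. Its log2 fold change was -0.060 ± 0.16. The third, 161876_r_at, read 2.02 and 2.49 in KO, against 13.9 and 0.995 in WT, too close to the floor to carry a level.

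**Figure D1:**
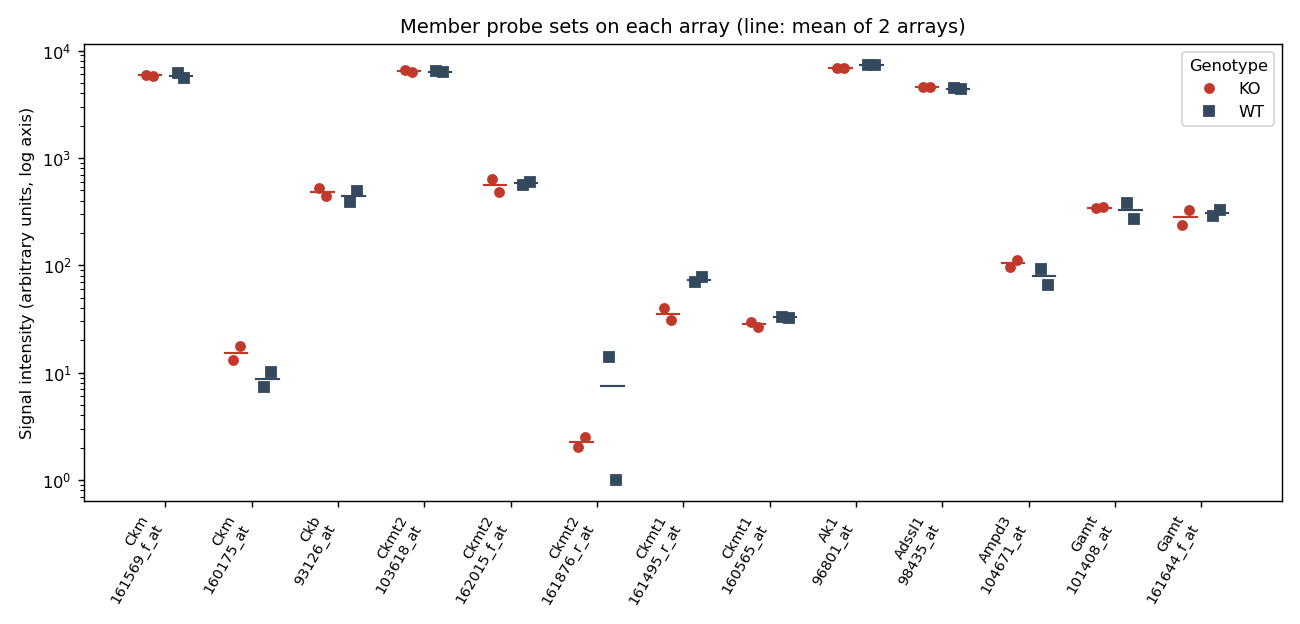
Signal intensity of the 13 probe sets on each array, on a log axis, with KO pools as circles left of WT pools as squares and a line at each mean of 2 arrays. The strong sets of Ckm, Ckmt2, Ak1 and Adssl1 lie nearly level across the 4 arrays, while 161495_r_at of Ckmt1 reads 39.6 and 30.7 in KO and 69.1 and 77.3 in WT.

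The creatine kinase forms made mainly outside the muscle fibre did not pass the test either. Ckb, the brain-type cytosolic form (Entrez gene 12709), read 528 and 441 in KO, against 390.2 and 492 in WT, on 93126_at. The ranges of the genotypes overlapped. Means were 485 ± 61.6 in KO and 441 ± 71.6 in WT (SD, n = 2 each), with a log2 fold change of 0.14 ± 0.16 (limma adjusted p = 0.922) and an interval from 0.83-fold to 1.45-fold. Without WT replicate 1 its log2 fold change was -0.025. Ckb is also made in nerve and smooth muscle. The 7 measured nerve and Schwann cell markers summed to 937 and 846 in KO and to 759 and 996 in WT, and the 7 smooth muscle markers to 1994 and 2225 in KO and to 2282 and 2003 in WT. No marker of either list was below 1 on any array. However, 4 of the 7 nerve and Schwann cell markers and 1 of the 7 smooth muscle markers lay below the median probe set. The part of these markers in the Ckb values was not tested.

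Ckmt1, the ubiquitous mitochondrial form known from brain and epithelia (Entrez gene 12716), had the largest log2 fold change among the 13 probe sets. Probe set 161495_r_at read 39.6 and 30.7 in KO, against 69.1 and 77.3 in WT. Both KO pools were below both WT pools, and the KO mean of 35.2 ± 6.24 was 48.0% of the WT mean of 73.2 ± 5.80 (SD, n = 2 each). The log2 fold change of -0.83 ± 0.33 had an unadjusted p of 0.0451 and an adjusted p of 0.902 (limma), so it did not pass. Its size depended on the pseudocount, at -0.50 with a pseudocount of 56 and -0.996 with one of 3.5. An exact two-sided permutation test of 2 against 2 arrays gives p = 0.33 here, the smallest value this design allows. On the other set, 160565_at, the pools also did not overlap, at 29.4 and 26.8 in KO and 33.1 and 32.5 in WT. There the log2 fold change was -0.15 ± 0.33 (limma adjusted p = 0.963). The sets thus share a direction, and whether their log2 fold changes differ beyond their errors was not tested. Both sets had means below that of the median probe set.

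Ak1, the cytosolic adenylate kinase of muscle (Entrez gene 11636), read slightly lower in KO pools. Probe set 96801_at gave 6828 and 6856 in KO, against 7372 and 7258 in WT, with no overlap between genotypes. The KO mean of 6842 ± 19.7 was 93.5% of the WT mean of 7315 ± 80.7 (SD, n = 2 each). Its pools agreed closely within each genotype, and the log2 fold change of -0.096 ± 0.10 did not pass (limma adjusted p = 0.914). The standard error comes from a variance moderated toward that of probe sets of similar level and is wider than the spread of these 4 values. The interval ran from 0.79-fold to 1.11-fold.

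Within the purine nucleotide cycle, Adssl1 and Ampd3 both read higher in KO pools without passing the test. Adssl1, the muscle form of adenylosuccinate synthase (Entrez gene 11565), read 4559.7 and 4582 in KO, against 4439 and 4407 in WT, on 98435_at. Both KO pools were above both WT pools, by a small margin: the KO mean of 4571 ± 16.1 was 103% of the WT mean of 4423 ± 22.1 (SD, n = 2 each). The log2 fold change was 0.047 ± 0.098 (limma adjusted p = 0.961), with an interval from 0.88-fold to 1.22-fold.

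Ampd3, the AMP deaminase known from red blood cells (Entrez gene 11717), read 96.5 and 111 in KO, against 93.2 and 65.8 in WT, on 104671_at. The genotypes did not overlap, but KO replicate 1 and WT replicate 1 nearly met. Means were 104 ± 10.6 in KO and 79.5 ± 19.3 in WT (SD, n = 2 each), with a log2 fold change of 0.35 ± 0.29 (limma adjusted p = 0.908) and an interval from 0.79-fold to 2.06-fold. Without WT replicate 2 the log2 fold change was 0.14. The 6 measured red blood cell markers summed to 12346 and 9991 in KO and to 9442 and 7570 in WT. In WT replicate 2 that sum and Ampd3 were both lowest, but only 3 of the 6 markers were lowest there, and the sum was highest in KO replicate 1 while Ampd3 was highest in KO replicate 2. Their part in the Ampd3 values was not tested.

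Gamt methylates guanidinoacetate to creatine (Entrez gene 14431), and its 2 probe sets pointed in opposite directions. On 101408_at it read 339.9 and 348 in KO, against 384 and 269 in WT, and on 161644_f_at 239 and 329 in KO, against 289 and 329.9 in WT. Both sets overlapped between genotypes, and the log2 fold changes were 0.094 ± 0.19 and -0.13 ± 0.19 (limma adjusted p = 0.960 and 0.942). The highest and lowest pools of the first set were both WT. Creatine synthesis is a trait of liver, kidney and pancreas more than of muscle. The 11 measured liver markers summed to 1138 and 1039 in KO and to 2398 and 3060 in WT, all 11 with a lower KO mean. In WT replicate 2, the pool with the highest liver sum, Gamt was lowest on 101408_at and highest on 161644_f_at. Their part in the Gamt values was not tested.

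**Figure D2:**
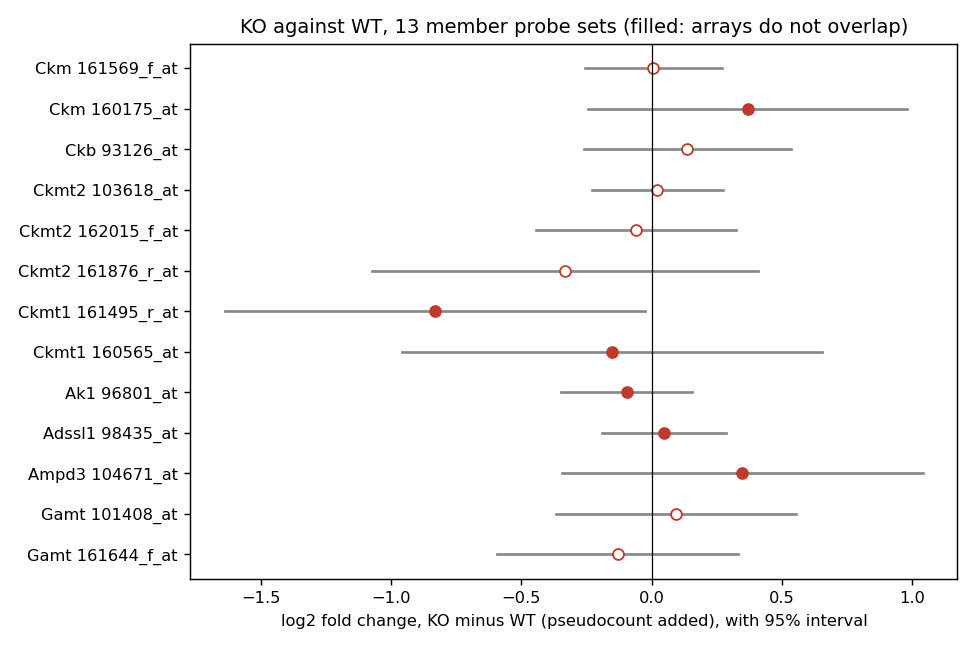
Log2 fold change of KO minus WT for the 13 probe sets, with 95% intervals from the fit over all probe sets. Filled points have both KO arrays on one side of both WT arrays. Of the 13 intervals, that of Ckmt1 161495_r_at alone leaves out 0, ending at -0.025, and its adjusted p did not reach the threshold.

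Over the 13 probe sets, 7 had a higher and 6 a lower KO mean on the log2 scale, beside 50.0% of all tested probe sets in either direction. The median log2 fold change was 0.0061, and that of all 12422 tested probe sets was 0.0001. No member passed (0 of 13, limma with Benjamini-Hochberg adjustment), where 0% of all probe sets passed. At an unadjusted p under 0.05 stood 1 of 13, the Ckmt1 set, where 5.43% of all probe sets did. The genotypes did not overlap for 6 of 13, beside 34.6% of all probe sets. Of these 6, the KO pools were above in 3, Ckm 160175_at, Ampd3 and Adssl1 (background 17.0%), and below in 3, Ak1 and both Ckmt1 sets (background 17.6%). With only 13 sets, these counts stand near the shares of the whole table and are no result about the members.

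The spread of the members over the 4 arrays followed their level. The sets of Ckm, Ckmt2, Ak1 and Adssl1 with a mean of at least 2000 had a highest reading 1.04 to 1.10 times the lowest. The median of that ratio was 1.06 for these 4, beside 1.17 for all 338 probe sets of that level. For the 5 members under 100 it was 2.39, beside 2.53 for all 7259 probe sets of that level. These level bounds were chosen after the values had been seen.

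**Figure D3:**
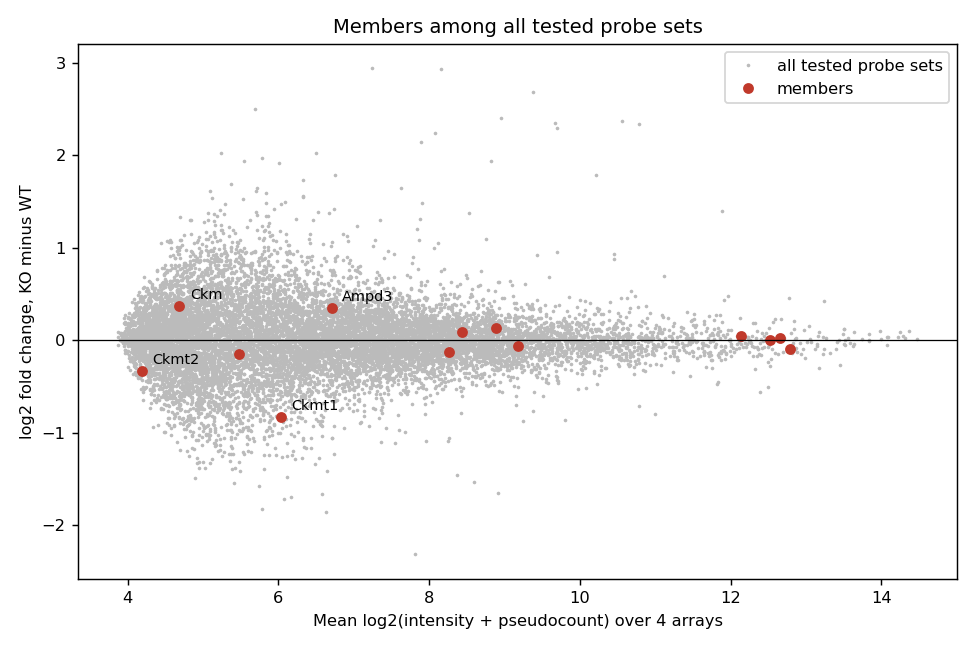
Log2 fold change of KO minus WT against mean log2(intensity + 14) for all 12422 tested probe sets in grey and the 13 members in red. Members with strong signal lie close to 0, and the members beyond 0.3 in size (one set each of Ckm, Ckmt2, Ckmt1 and Ampd3) lie at lower levels, where the grey cloud is wide.

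Slow-fibre transcripts varied between the pools more than the strong probe sets of Ckm, Ckmt2, Ak1 and Adssl1 did. The 9 slow-fibre markers summed to 19775 and 16547 in KO and to 12480 and 21445 in WT, a range of 1.72-fold, and 8 of the 9 were lowest in WT replicate 1. The 9 fast-fibre markers summed to 111612 and 126155 in KO and to 119109 and 113623 in WT, a range of 1.13-fold. Against this, Ckm on 161569_f_at spanned 1.10-fold, Ak1 1.08-fold, Ckmt2 on 103618_at 1.05-fold and Adssl1 1.04-fold over the same arrays. On 161569_f_at Ckm read highest in WT replicate 1, the pool lowest in slow-fibre markers, and lowest in WT replicate 2, the pool highest in them, whereas on the dim 160175_at it read lowest in WT replicate 1 and highest in KO replicate 2. Whether fibre composition bears on the Ckm values was not tested.

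**Figure D4:**
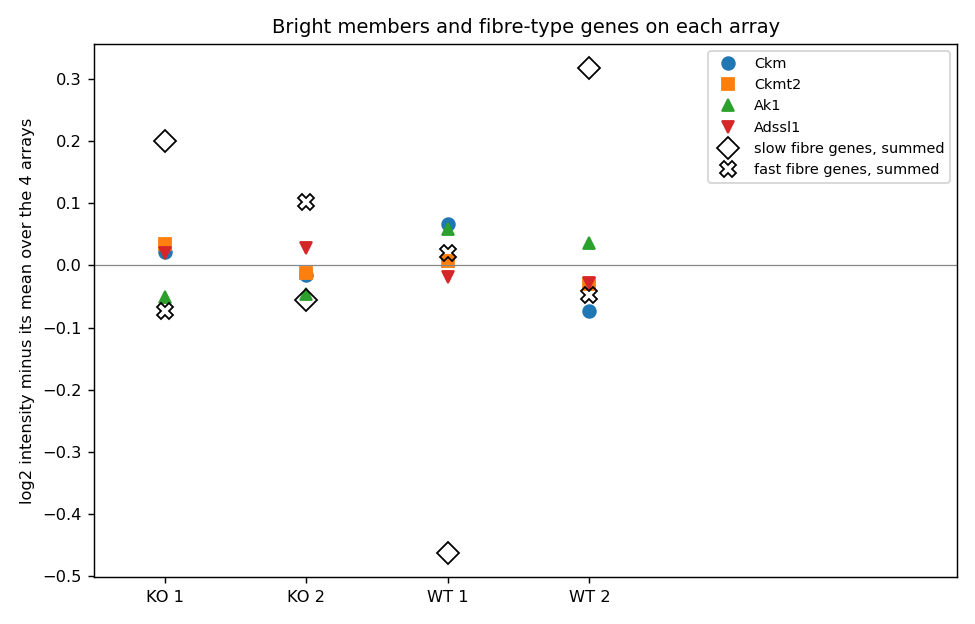
Log2 intensity minus its mean over the 4 arrays for the strong probe sets of Ckm, Ckmt2, Ak1 and Adssl1 (filled) and for summed slow-fibre and fast-fibre markers (open), on KO arrays at left and WT arrays at right. The slow-fibre sum is lowest in WT replicate 1 and highest in WT replicate 2, and the 4 enzymes stay within a narrow band around 0.

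Among 61 other pathway and muscle marker genes, the profile of Ckm over the 4 arrays was closest to those of the fast troponins Tnnc2 and Tnnt3. The root mean square difference of centred log2 values was 0.042 for Tnnc2 and 0.053 for Tnnt3. For Ckmt2 the closest were the same genes, Tnnt3 at 0.039 and Tnnc2 at 0.041. All of these profiles are nearly flat, and 4 arrays cannot separate likeness from lack of change.

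On the brightest probe set of each gene, other genes of these pathways read lower in KO in most cases, none past the test. The dimmer probe sets of these genes went in both directions, with more of them higher than lower in KO. Of 56 listed genes 35 were measured. On the log2 scale 28 had a lower and 7 a higher KO mean, beside 50.0% of all tested probe sets in either direction. The median log2 fold change was -0.11, beside 0.0001 for all probe sets. None of the 35 passed (limma), and 1, Vdac2, had an unadjusted p under 0.05. The genotypes did not overlap for 13 of 35, beside 34.6% of all probe sets, with KO below in 10 (background 17.6%) and above in 3 (background 17.0%). With KO replicate 2 left out, 22 of 35 were lower and the median was -0.054.

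Mitochondrial exchange of ATP, ADP and phosphate was measured by 6 genes, all 6 with a lower KO mean (median log2 fold change -0.14). The genotypes did not overlap for 2 of the 6, beside 34.6% of all probe sets, and 2 of the 6 had means below that of the median probe set. Vdac2, a channel of the outer membrane, read 406 and 459 in KO, against 552 and 569 in WT, on 160529_r_at. Both KO pools were below both WT pools, and the log2 fold change of -0.37 ± 0.12 did not pass (limma adjusted p = 0.846). Its other probe set, between 6.22 and 29.2, had 0.42 ± 0.38. The carrier that exchanges ADP and ATP in muscle, Slc25a4, read 10498 and 11017 in KO, against 10939 and 10860.1 in WT, and its genotypes overlapped. Vdac1, another outer membrane channel, was near the floor and had -0.20 ± 0.24.

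On 1 probe set per gene, genes of AMP and adenosine breakdown were lower in KO in 8 of 8 cases (median log2 fold change -0.14). None of them passed. The genotypes did not overlap for 3 of the 8, beside 34.6% of all probe sets, and 3 of the 8 had means below that of the median probe set. Dimmer probe sets ran the other way, with both KO pools above both WT pools, for adenosine deaminase (Ada, 0.21 ± 0.19 and 0.43 ± 0.34) and for the ectonucleotidase Entpd2 (0.20 ± 0.24). Adenosine kinase (Adk), which returns adenosine to AMP, read 731 and 602 in KO, against 627 and 942 in WT (-0.21 ± 0.21), and its dim probe sets had 0.25 ± 0.54 and 0.78 ± 0.55. Entpd5, a nucleoside diphosphatase, was dim at -0.27 ± 0.26. The other adenylate and nucleoside diphosphate kinases were lower in 5 of 6 cases (median -0.21). Among them Nme6, of the nucleoside diphosphate kinase family, read 359 and 298 in KO, against 388 and 396 in WT (-0.25 ± 0.15), with no overlap. The mitochondrial adenylate kinase Ak3 had -0.31 ± 0.23, and 0.080 ± 0.30 on its other set.

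Partners of the members in their own cycle and in creatine supply overlapped between genotypes, except Adss. Adss, the non-muscle adenylosuccinate synthase, read 202 and 231 in KO, against 252 and 240.5 in WT (-0.18 ± 0.16), with -0.13 ± 0.16 on its other set. Adsl, the lyase that follows it, read 1139 and 922 in KO, against 906 and 1001 in WT (0.10 ± 0.14). The creatine transporter Slc6a8 read 456 and 411 in KO, against 448 and 465 in WT (-0.074 ± 0.12). Gatm, which makes guanidinoacetate for Gamt and is strong in pancreas and kidney, read 240.4 and 210.3 in KO, against 208 and 279.8 in WT (-0.097 ± 0.20). Markers of exocrine pancreas read higher in KO, though none passed the adjusted test (limma). The 8 measured summed to 10431 and 3286 in KO and to 1444 and 1424 in WT. The genotypes did not overlap for 7 of the 8, beside 34.6% of all probe sets. Within KO, Gatm and that sum were both higher in replicate 1. Gatm was highest in WT replicate 2, where the sum was nearly the same as in WT replicate 1. The part of pancreas transcripts in the Gatm values was not tested.

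Purine synthesis and salvage split, with 5 genes higher and 4 lower in KO (median log2 fold change 0.075). The salvage enzyme Aprt read 43.5 and 58.5 in KO, against 29.9 and 16.6 in WT (0.82 ± 0.38, limma adjusted p = 0.908), with 0.12 ± 0.30 and -0.32 ± 0.28 on its dimmer sets. Impdh1, which turns IMP toward guanine nucleotides, had 0.34 ± 0.26. Of the AMP-activated protein kinase, the sensor of AMP, 2 of 7 subunits were measured, Prkab1 at -0.12 ± 0.21 and Prkag1 at -0.023 ± 0.18, and both overlapped between genotypes.

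**Figure D5:**
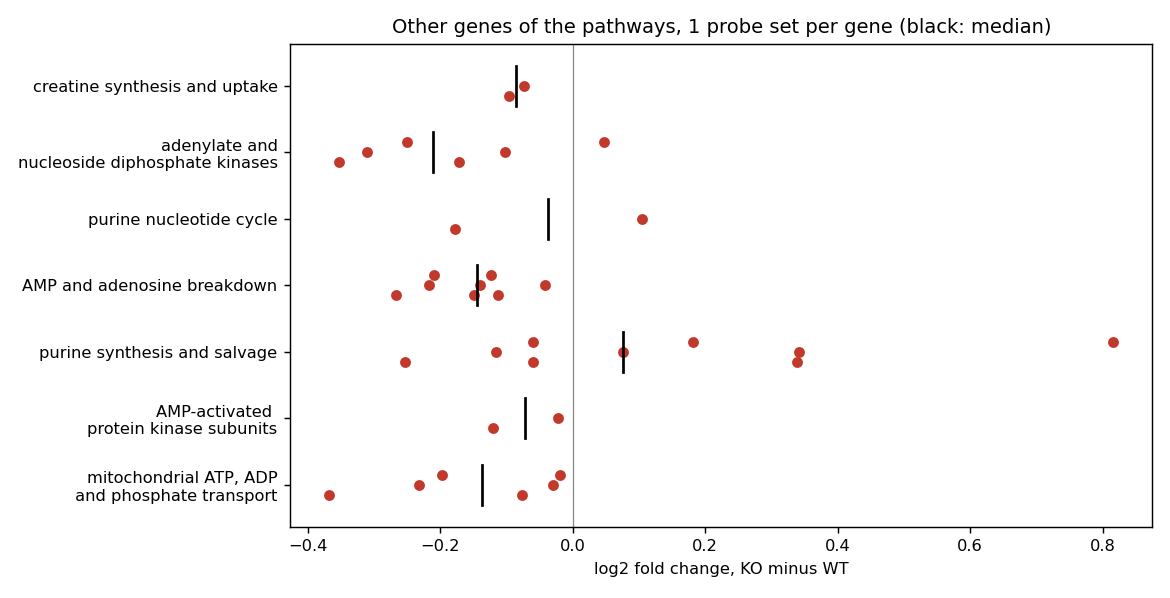
Log2 fold change of KO minus WT for 35 measured genes of the related pathways other than the members, 1 probe set per gene, with a black line at each list's median. Medians run from -0.21 for the other adenylate and nucleoside diphosphate kinases to 0.075 for purine synthesis and salvage, and no gene passed the adjusted test.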

How the data were processed

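Intensities of skeletal muscle RNA were compared between 2 KO and 2 WT arrays. The deposited table holds 1 linear intensity per probe set and array, already scaled, as equal trimmed means show. How the authors summarised probes, corrected background or called detection is not given in the sources used. Of 12488 probe sets, 66 controls were left out and 12422 tested with no filter. Symbols came from the platform annotation, which gave 1 symbol to 10833 probe sets, several to 396 and none to 1193, and were updated through gene identifiers of GRCm38.p6 (10817 found). Values were taken as log2(intensity + 14), 20% of the table's median, and not recentred, since array medians differed by 0.061. The linear model of genotype used limma 3.58.1 under R 4.3.3 (lmFit, eBayes with trend, two-sided, Benjamini-Hochberg, threshold 0.05), tested on simulated data. The design assigned 1 probe set per pathway gene, that with the highest mean. The genes named are all members, the 2 of smallest unadjusted p in each pathway list and the 2 of closest profile. Slc25a4, Acta1, Ada and Entpd2 were named as well, chosen after their values were seen. Members, lists and markers were chosen with earlier results of these data known. Nothing in the labels says that pools share a batch. The alternatives were 11 settings of pseudocount, filter, normalization, variance model, replicate block and arrays left out.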

Additional observations from a re-analysis of the deposited data

How the results depend on the processing

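In all 11 alternatives 0 probe sets and 0 pathway genes passed the adjusted threshold (limma; 674 probe sets had an unadjusted p under 0.05 as reported). Of 139 values of member probe sets under alternatives, 130 kept their direction and 0 passed. The 9 that reversed did so with median centring or with 1 array left out, and belonged to 7 probe sets. Ckm 161569_f_at had -0.0047 with median centring, and ranged from -0.063 to 0.076 with 1 array left out. With 1 array left out, Ckmt2 ranged from -0.0010 to 0.045 on 103618_at, from -0.26 to 0.14 on 162015_f_at and from -0.78 to 0.12 on 161876_r_at, Ckb from -0.025 to 0.30, and Gamt from -0.15 to 0.34 on 101408_at and from -0.35 to 0.089 on 161644_f_at. Ckmt1 161495_r_at kept its direction, at -0.96 to -0.70 with 1 array left out and at -0.996 to -0.50 under the other settings. Ak1 and Adssl1 kept theirs as well. With 1 array left out Ak1 was at -0.11 to -0.085 and Adssl1 at 0.042 to 0.053. Under the other settings Ak1 was at -0.11 to -0.096 and Adssl1 at 0.037 to 0.056. The median of the members was -0.039 to 0.044 with 1 array left out. The genotypes did not overlap for 3 of the 9 members above the median level (35.1% of all probe sets there), and for 7 to 11 of 13 with 1 array left out, where a lone array separates more easily (66.5% to 69.5% of all probe sets). In fits with an array left out, the lone pool is assumed to vary like the others. With the replicate block the median of the members was 0.0061 and 0 probe sets passed. The smallest adjusted p was then 0.255, beside 0.803 without the block (limma). Across probe sets, which are not independent, same-numbered pools did not deviate together (r = 0.0034, and 0.026 above the median level). A correlation over the whole table cannot decide whether pools were paired. The dim probe sets Ckm 160175_at and Ckmt2 161876_r_at are limited by signal near the floor. Both Ckmt1 sets were brighter than these, with means below that of the median probe set.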
